A study of Mus musculus with 4 samples.

Results

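The 9 genes described here code for matricellular and related matrix proteins: Postn (periostin), Tnc (tenascin C), Tnxb (tenascin XB), Spp1 (osteopontin), Sparc, Sparcl1, Fn1 (fibronectin), Fstl1 and Cthrc1. They were taken by name from 55382 genes, and each name stood on exactly 1 Ensembl gene in both deposited tables. All 9 had enough signal to be tested in every measure. In hearts of Nat10 knockout mice, 2 of them (Cthrc1 and Fstl1) rose in ribosome footprints, 5 (Tnc, Cthrc1, Postn, Fstl1 and Fn1) rose in RNA, and none passed the test for translation efficiency. Tnxb, the relative of Tnc, did not pass in any measure.

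Matricellular proteins are secreted into the matrix, where they act less as building material than as signals that change how cells attach, move and respond to growth factors. Many of them bind integrins, the cell surface receptors that link matrix to cytoskeleton, and many are made strongly in development, fall in the healthy adult organ and return after injury. In the heart they are made mostly by fibroblasts, and periostin and tenascin C are widely used as marks of fibroblast activation and of matrix remodelling. Fibronectin is a structural glycoprotein of the provisional matrix and a scaffold on which several of the others assemble.

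The study measured ribosome-protected mRNA fragments in mouse hearts on day 15 after birth, in order to find those linked to NAT10, the RNA cytidine acetyltransferase. The control group, WT in the titles and NAT10-FF in the series' design, and the knockout group, KO and NAT10-CKO, have 2 libraries each. CKO is read here as a conditional knockout. The Cre driver, the deleted exons, the strain, the sex and whether the controls carry Cre were not given in the sources used here, nor was whether the replicates are separate animals, so p-values measure no more than how these libraries vary, possibly for technical reasons. About 100 mg of heart was taken, cycloheximide (100 µg/mL) was used in every sample to stop ribosomes, and all libraries carry 1 batch label.

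A footprint level is given in FPKM, fragments per kilobase of gene scaled to the mapped total, so levels of different genes can be set side by side per length. Translation efficiency is the authors' ratio of footprint to RNA level, and dividing a footprint level by it gives the RNA level that went into it, called the implied RNA level. Efficiency and RNA are therefore not independent of the footprints. Per library, 16425 to 16900 genes had footprints, and the depth in reads is unknown. The targeted gene, Nat10, read 77.3 and 73.9 FPKM of footprints in WT against 40.01 and 52.1 in KO, a log2 difference of -0.71 that did not pass (limma, adjusted p = 0.295). In RNA it stood at 7.02 and 8.34 FPKM in WT against 5.62 and 6.69 in KO, also without passing (adjusted p = 0.424). The labels give cardiomyocytes as the cell type, whereas the protocol describes whole heart tissue. Markers of fibroblasts, endothelium and macrophages were all measured in every library, beside abundant cardiomyocyte transcripts.

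The start regions of 4 of the genes are shown first, because Tnc, Fstl1 and Postn rose in RNA and Tnxb, the relative of Tnc, did not pass. Each runs 5′ to 3′ along the gene from 250 bases before an annotated start to 50 bases after it (RefSeq, GRCm38.p6), and windows were at hand for 6 of the 9 genes: Postn, Tnc, Tnxb, Spp1, Sparc and Fstl1. Capitals mark matches to any of 6 motifs searched on both strands: TATAAA (the TATA box), CCAAT (the CAAT box), GGGCGG (the GC box), TGANTCA (the AP-1 site), CATTCC (the TEAD site) and CAGACA (a SMAD site). The first of the windows is that of a start of Tnc at chr4:64046887-64047186, minus strand.
Tnc: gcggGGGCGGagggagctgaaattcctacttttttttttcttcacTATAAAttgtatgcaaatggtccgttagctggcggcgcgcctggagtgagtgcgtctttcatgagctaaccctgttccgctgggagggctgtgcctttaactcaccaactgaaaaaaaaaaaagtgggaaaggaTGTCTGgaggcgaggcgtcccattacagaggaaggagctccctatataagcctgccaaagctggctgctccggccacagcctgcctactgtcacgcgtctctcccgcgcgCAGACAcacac
Tnxb at chr17:34670285-34670584, plus strand: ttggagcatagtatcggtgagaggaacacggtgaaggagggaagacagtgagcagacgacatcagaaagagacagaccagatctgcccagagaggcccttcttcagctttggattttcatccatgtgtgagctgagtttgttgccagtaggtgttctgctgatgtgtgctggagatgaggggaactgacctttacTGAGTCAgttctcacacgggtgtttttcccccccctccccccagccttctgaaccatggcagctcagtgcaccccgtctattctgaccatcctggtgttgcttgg
Postn at chr3:54359017-54359316, plus strand: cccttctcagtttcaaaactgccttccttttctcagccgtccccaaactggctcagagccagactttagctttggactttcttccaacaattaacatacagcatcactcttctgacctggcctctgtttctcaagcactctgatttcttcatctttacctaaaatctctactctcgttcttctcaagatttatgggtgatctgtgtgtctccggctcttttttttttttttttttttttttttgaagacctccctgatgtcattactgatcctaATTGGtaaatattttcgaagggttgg
Fstl1 at chr16:37776805-37777104, plus strand: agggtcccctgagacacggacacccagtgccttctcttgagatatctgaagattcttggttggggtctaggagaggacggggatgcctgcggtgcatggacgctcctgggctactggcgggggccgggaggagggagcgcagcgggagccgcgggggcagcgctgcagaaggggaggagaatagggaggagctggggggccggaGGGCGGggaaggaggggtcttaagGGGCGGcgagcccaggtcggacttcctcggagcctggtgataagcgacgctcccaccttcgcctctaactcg
The Tnc window holds TATAAA at base -205 and GGGCGG at base -246 from this start, and CAGACA on both strands. Only the 6 patterns as written were searched, so variants such as the tatataa nearer to this start are unmarked. The Tnxb window holds TGANTCA at base -55, a sequence that reads the same on both strands. Fstl1 holds GGGCGG at bases -46 and -22, and Postn holds CCAAT on the opposite strand at base 25. Tnc, Postn and Spp1 each have a second annotated start with a window of its own, not printed here, and that of Postn, at chr3:54360857-54361156, holds TATAAA at base -26. These motifs are common: among 32851 such windows, 13.6% hold TATAAA, 37.4% CCAAT, 35.7% GGGCGG, 7.81% TGANTCA, 14.7% CATTCC and 21.04% CAGACA. No motif was shared by all 4 windows. A match is a description of letters and says nothing about binding.

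All 9 are annotated as protein-coding on GRCm38. Fn1 (ENSMUSG00000026193) lies on chr1:71585473-71653280, Postn (ENSMUSG00000027750) on chr3:54359267-54391041 and Tnc (ENSMUSG00000028364) on chr4:63959785-64047015. Chromosome 5 holds Sparcl1 (ENSMUSG00000029309) at chr5:104079108-104114088 and Spp1 (ENSMUSG00000029304) at chr5:104435111-104441053. Sparc (ENSMUSG00000018593) lies on chr11:55394159-55420080, Cthrc1 (ENSMUSG00000054196) on chr15:39076932-39087121, Fstl1 (ENSMUSG00000022816) on chr16:37777055-37836516 and Tnxb (ENSMUSG00000033327) on chr17:34660453-34719815. Other annotated genes overlap Tnc, Tnxb, Postn, Sparcl1 and Fstl1, and since the strand used in counting was not given, reads from the shared stretches cannot be told apart. Of these, 8030451A03Rik, which overlaps Tnc, had a footprint level above 0 in KO replicate 1 only (0.69 FPKM), and Gm24389 and Cyp21a2-ps, which overlap Tnxb, were listed at 0 in all libraries.

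Of the 9 genes, 2 rose in footprints by limma's test on log2(FPKM + 1), adjusted by Benjamini-Hochberg over 15031 genes and called at 0.05. The share of all tested genes called higher was 0.253%. None fell. For RNA, 5 rose and none fell over 12529 genes, where 4.20% of all genes were called higher. The median log2 change of the 9 genes was 1.66 for footprints and 1.65 for RNA, against 0.36 and 0.22 for all tested genes. At an unadjusted p under 0.05, 6 of the 9 differed in footprints and 7 in RNA, against 17.3% and 28.3% of all genes. In 8 of the 9 genes both KO libraries lay above both WT libraries in footprints, and in the same number in RNA. That pattern was common among all genes, at 39.5% for footprints and 44.2% for RNA. When libraries were rescaled by median ratio, the median of all genes moved to 0.03 for footprints and 0.00 for RNA, and the same 2 and 5 genes passed. That rescaling changed the split of all RNA calls from 526 higher and 192 lower to 327 and 309. With small RNA genes, unnamed models and pseudogenes left out, 6 of the 9 rose in footprints (Cthrc1, Fstl1, Postn, Fn1, Sparc and Tnc), where 1.30% of the 12932 genes tested were called higher. Without a variance trend, Tnc alone kept its RNA call and none passed in footprints.

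**Figure D1:**
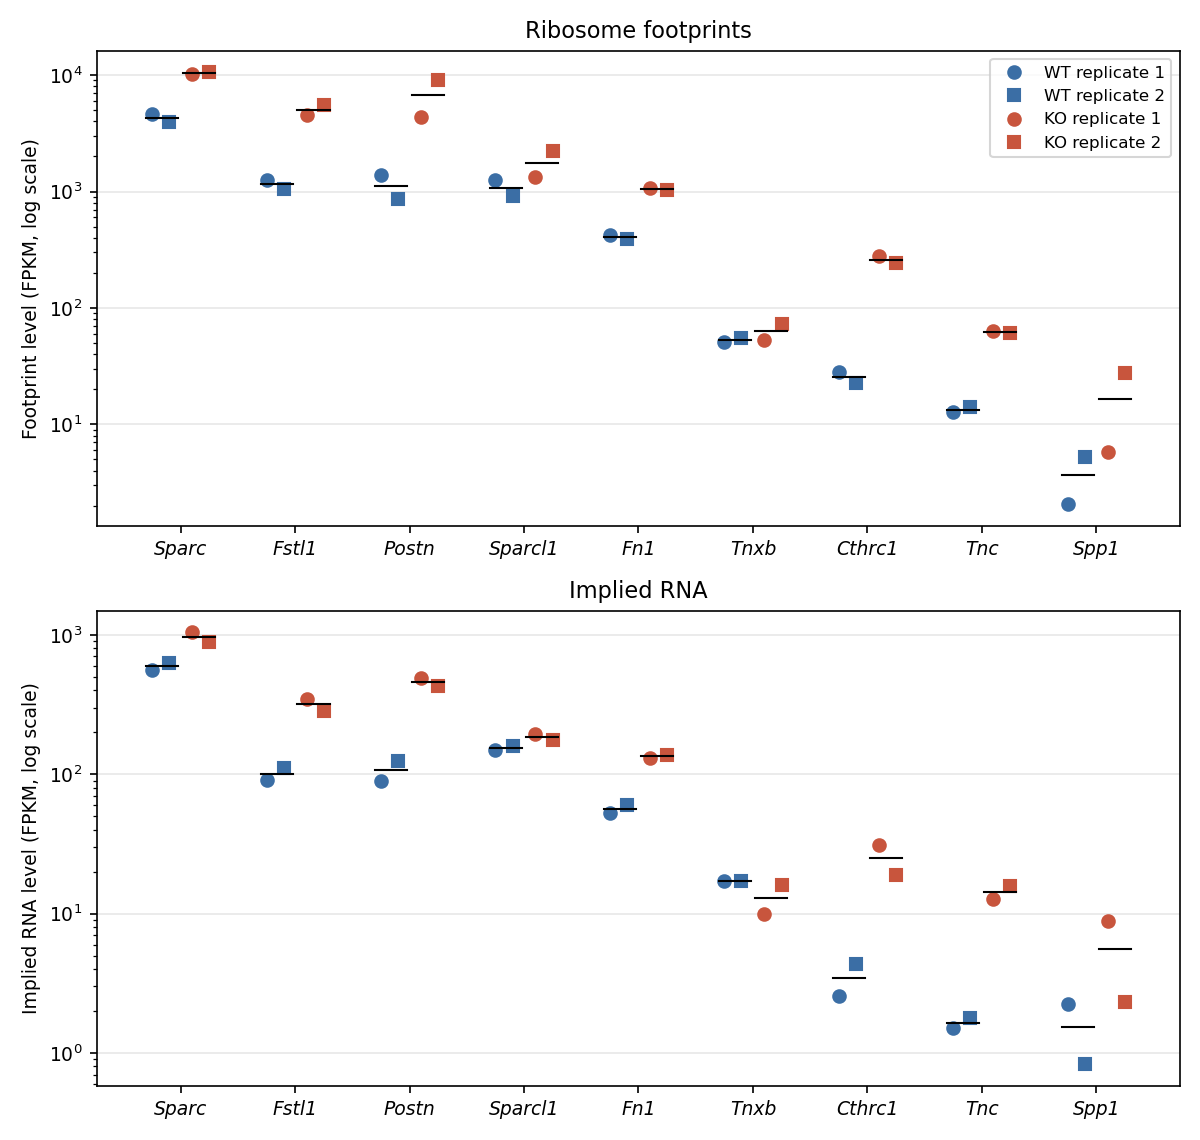
Footprint level (top) and implied RNA level (bottom) of the 9 genes in FPKM on log axes, with 1 point per library, WT in blue and KO in red, and a black line at each group's mean (n = 2). The KO points lie above the WT points for 8 genes in both panels, and Tnxb is the exception.

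Periostin, a fasciclin-domain protein that binds integrins and helps to cross-link collagen, had the largest footprint difference in FPKM after Sparc. Postn read 1383 and 857 FPKM in WT against 4385 and 9108 in KO. Both KO libraries were above both WT libraries, but KO replicate 2 read far above KO replicate 1. The footprint change was 5.80-fold (log2 2.54, SE 0.42, 95% interval 1.499 to 3.57) and did not pass over all genes (adjusted p = 0.108). In RNA the values were tighter, at 89.2 and 124 FPKM in WT against 493 and 431 in KO. Postn RNA rose 4.38-fold (log2 2.13, SE 0.25, limma adjusted p = 0.019). With the replicate number as a block, a term that the labels do not say pairs hearts, its footprints passed too (adjusted p = 0.029).

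The tenascins are large multimers of repeated fibronectin-like domains. Tenascin C is an anti-adhesive protein made in remodelling tissue, while tenascin X is a stable part of the matrix around collagen fibrils. Tnc read 12.6 and 13.99 FPKM of footprints in WT against 62.8 and 60.7 in KO, a 4.39-fold difference with little spread within groups (log2 2.13, SE 0.34, adjusted p = 0.103). Its RNA stood at 1.505 and 1.78 FPKM in WT against 12.8 and 15.8 in KO. Tnc RNA rose 8.69-fold (log2 3.12, SE 0.26, limma adjusted p = 0.014), and by 2.53 on the log2 scale with a pseudocount of 1 on RNA (adjusted p = 0.012). Tnxb read 50.5 and 55.0 FPKM of footprints in WT against 53.1 and 72.4 in KO, with overlapping groups (log2 0.23, 95% interval -0.53 to 0.99, adjusted p = 0.728). The sign of that footprint difference turned under both rescalings of the libraries, to -0.14 by median ratio and -0.13 by quantiles. In RNA, Tnxb was the one gene of the set with both KO libraries below both WT libraries, at 17.2 and 17.1 FPKM in WT against 9.89 and 15.97 in KO (log2 -0.45, 95% interval -1.11 to 0.22, adjusted p = 0.325). Without KO replicate 2 this RNA difference was -0.79 and passed (adjusted p = 0.031). A fit with a library left out has a group of 1 library, which is assumed to vary like the other group, and without KO replicate 2 such a fit called 2632 genes higher and 1110 lower.

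Within a library, the ratio of Tnc to Tnxb is not altered by a single scaling factor per library. In footprints it was 0.25 in each WT library and 1.18 and 0.84 in KO. In RNA it was 0.088 and 0.104 in WT against 1.29 and 0.99 in KO, so Tnc went from well below the Tnxb level to about the same level. The groups did not overlap in either measure, and an exact permutation test over the 4 libraries (two-sided) gave p = 0.333 for each, the smallest that 2 against 2 allows.

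Fibronectin, the cell-adhesive glycoprotein of the provisional matrix, had some of the closest replicates of the set. Fn1 read 422 and 390.2 FPKM of footprints in WT against 1079.9 and 1038 in KO, a 2.60-fold difference (log2 1.38, SE 0.20, adjusted p = 0.085). Its RNA stood at 52.8 and 60.1 FPKM in WT against 132 and 138 in KO and rose 2.39-fold (log2 1.26, SE 0.20, limma adjusted p = 0.030). Footprints and RNA of Fn1 thus differed by nearly the same factor. The RNA call was lost without WT replicate 1 (adjusted p = 0.175) and without WT replicate 2 (adjusted p = 0.056).

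Sparc and Sparcl1 are relatives that share a follistatin-like and a calcium-binding domain. SPARC is a collagen-binding protein that takes part in the handling of fibrillar procollagen, and SPARC-like protein 1, or hevin, is made by vascular cells as well. Sparc read 4615 and 3973 FPKM of footprints in WT against 10193 and 10561 in KO, with wide separation between groups (2.42-fold, log2 1.28, SE 0.24, adjusted p = 0.124). Its RNA was 560.0 and 630.1 FPKM in WT against 1045 and 893 in KO, also separate but closer (1.63-fold, adjusted p = 0.131). Sparcl1 read 1244 and 915 FPKM of footprints in WT against 1321 and 2212 in KO, so that KO replicate 1 lay just above the higher WT library (log2 0.68, 95% interval -0.11 to 1.47, adjusted p = 0.338). Its RNA was 150.4 and 159 FPKM in WT against 195 and 175 in KO (log2 0.26, 95% interval -0.23 to 0.75, adjusted p = 0.432). Relative to the median of all genes, the RNA of Sparcl1 differed by 0.04. The RNA ratio of Sparc to Sparcl1 was 3.72 and 3.98 in WT against 5.37 and 5.09 in KO, without overlap (exact permutation p = 0.333, the smallest possible).

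Fstl1 and Cthrc1 passed in both measures. Fstl1 codes for follistatin-like protein 1, a secreted glycoprotein related to SPARC that is made by heart fibroblasts and epicardium, and Cthrc1 for a collagen triple helix repeat protein, a mark of matrix-producing fibroblasts in injured tissue. Fstl1 read 1266 and 1059 FPKM of footprints in WT against 4558 and 5545 in KO and rose 4.34-fold (log2 2.12, SE 0.23, limma adjusted p = 0.041). Its RNA rose 3.14-fold, from 91.6 and 111 FPKM to 349 and 286 (log2 1.65, SE 0.23, limma adjusted p = 0.025). KO was far above WT in all 4 pairings of libraries in both measures. Cthrc1 read 28.3 and 22.8 FPKM of footprints in WT against 279 and 242 in KO and rose 9.86-fold (log2 3.30, 95% interval 2.62 to 3.99, limma adjusted p = 0.015), the largest footprint change of the set. Its RNA rose 7.29-fold, from 2.56 and 4.34 FPKM to 31.2 and 19.0 (log2 2.87, SE 0.36, limma adjusted p = 0.022). No footprint call in the whole table, these included, held when any 1 of the 4 libraries was left out, where the adjusted p of Cthrc1 ran from 0.299 to 0.650 and that of Fstl1 from 0.299 to 0.666, while their log2 changes stayed between 3.15 and 3.45 and between 1.98 and 2.26. The RNA call of Fstl1 was lost without WT replicate 1 (adjusted p = 0.079).

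Osteopontin, a phosphorylated integrin ligand and cytokine made by macrophages and activated mesenchymal cells, was the weakest and the least steady of the set. Spp1 read 2.06 and 5.27 FPKM of footprints in WT against 5.73 and 27.4 in KO. The higher WT library and the lower KO library were nearly level, and the interval of the log2 difference of 1.66 ran from -0.39 to 3.704 (adjusted p = 0.354). In RNA the values were 2.25 and 0.83 FPKM in WT against 8.82 and 2.34 in KO (log2 1.73, 95% interval 0.02 to 3.44, adjusted p = 0.172). The order of the KO libraries thus opposed that in footprints. In fits where 1 group was a single library, the log2 RNA difference ran from 0.77 without KO replicate 1 to 2.69 without KO replicate 2. With the replicate block, which keeps all 4 libraries, the RNA difference passed (limma adjusted p = 0.0064). The labels do not say that replicate numbers pair hearts. Over all genes, that block raised the RNA calls from 526 higher and 192 lower to 1028 and 401. Spp1 lies 321 kilobases from Sparcl1 on chromosome 5.

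**Figure D2:**
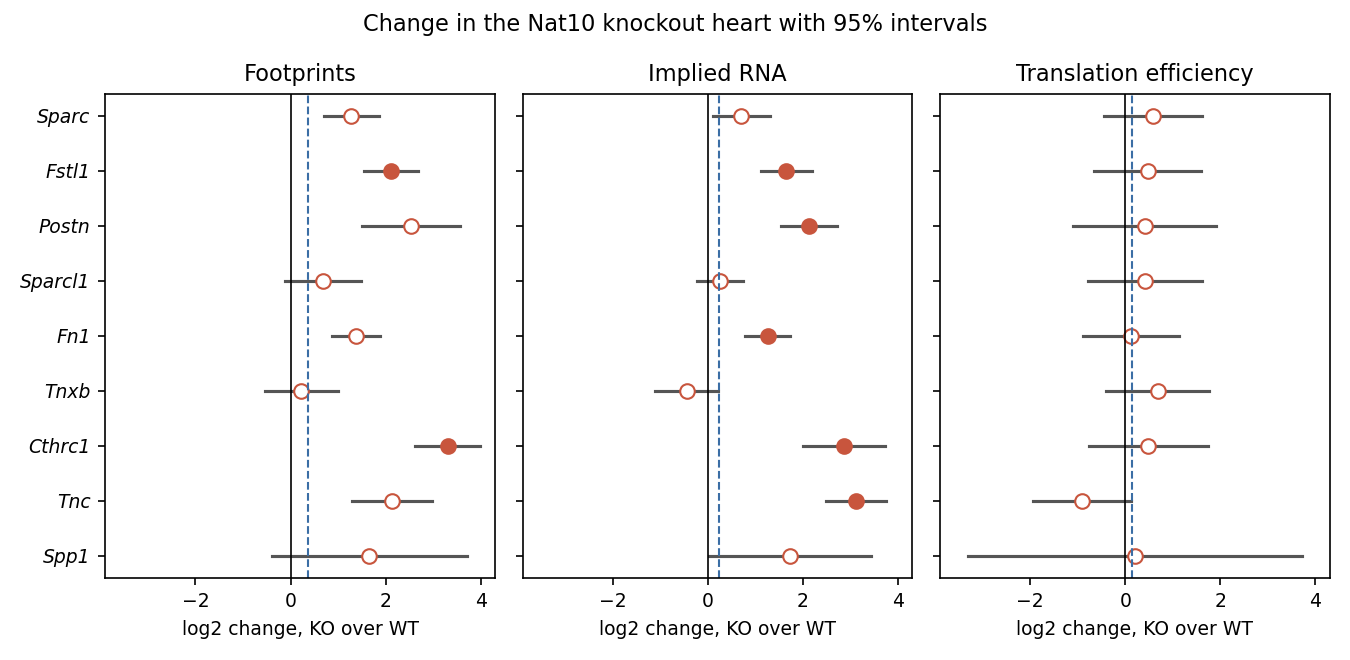
Log2 change, KO over WT, of the 9 genes with 95% intervals from limma, for footprints, implied RNA and translation efficiency. Filled points passed at an adjusted p of 0.05 and the dashed line is the median of all tested genes. Fstl1 and Cthrc1 are filled for footprints, 5 genes for RNA and none for efficiency, where Tnc alone lies below 0.

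The RNA and footprint changes had a similar order over the 9 genes. Across them the changes correlated at r = 0.91 (Spearman 0.93), which is a description only, since the RNA level was computed from the footprint table and both share the same libraries. Cthrc1, Postn and Tnc were the 3 largest changes in both measures, with Tnc and Fstl1 nearly level in footprints (2.13 and 2.12) and in the other order after quantile normalisation (1.71 and 1.88). Tnxb and Sparcl1 had the smallest. The footprint change exceeded the RNA change in 7 of the 9 genes, by 0.12 for Fn1 up to 0.68 for Tnxb on the log2 scale. It fell short by 0.07 for Spp1 and by 0.98 for Tnc. An excess was common: the log2 efficiency change was above 0 in 59.5% of all 12529 genes, with a median of 0.15. Spp1 and Tnc are the 2 members that fell short. Both are low in RNA, and footprints carry a pseudocount that RNA does not. With a footprint pseudocount of 0.1 in place of 1, the footprint change was 2.21 for Tnc, still below its 3.12 in RNA. For Spp1 the footprint change was then 1.90, above its 1.73 in RNA. With a pseudocount of 1 on RNA as well, the RNA change was 2.53 for Tnc, against 2.13 in footprints, and 1.23 for Spp1, below its 1.66 in footprints.

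Translation efficiency, a ratio without unit, did not change by the test in any of the 9 genes (limma on log2, adjusted p 0.828 to 0.996, and 0 of 9 at an unadjusted p under 0.05). The share called over all 12529 genes was 0%, and 6.06% had an unadjusted p under 0.05. Tnc read 8.40 and 7.86 in WT against 4.91 and 3.84 in KO, both KO libraries below both WT libraries (log2 -0.90, 95% interval -1.93 to 0.13, unadjusted p = 0.077, limma adjusted p = 0.828). With a pseudocount of 1 on both levels, which weighs on the low RNA of Tnc, the difference was -0.39, smaller than that of 7 other members. In the deposited efficiencies, 12.0% of all genes had both KO libraries below. Its relative Tnxb stood the other way round, at 2.94 and 3.22 in WT against 5.36 and 4.53 in KO (log2 0.68, 95% interval -0.40 to 1.76). The efficiency of Tnc over that of Tnxb was 2.85 and 2.44 in WT against 0.92 and 0.85 in KO (exact permutation p = 0.333, the smallest possible). Sparc also had both KO libraries above both WT libraries, at 8.24 and 6.31 in WT against 9.76 and 11.8 in KO, a pattern seen in 24.0% of all genes.

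In the other 6 genes the efficiencies of the groups overlapped. Postn read 15.5 and 6.91 in WT against 8.89 and 21.1 in KO. Fstl1 read 13.8 and 9.57 in WT against 13.05 and 19.4 in KO, and Cthrc1 11.04 and 5.26 against 8.95 and 12.7. For these 3, which rose in RNA, 1 KO library lay within the WT range and 1 above it. Fn1 was the steadiest, at 7.99 and 6.49 in WT against 8.19 and 7.54 in KO. Sparcl1 read 8.27 and 5.77 against 6.78 and 12.6, and Spp1, at low levels, 0.91 and 6.33 against 0.65 and 11.7. Much of this spread was between replicates: efficiency was higher in KO replicate 2 than in KO replicate 1 in 6 of the 9 genes and in 66.4% of all genes, and higher in WT replicate 1 than in WT replicate 2 in 7 of the 9 and in 67.9% of all. The median spread between replicates was 0.50 on the log2 scale for efficiency, 0.40 for footprints and 0.26 for RNA.

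**Figure D3:**
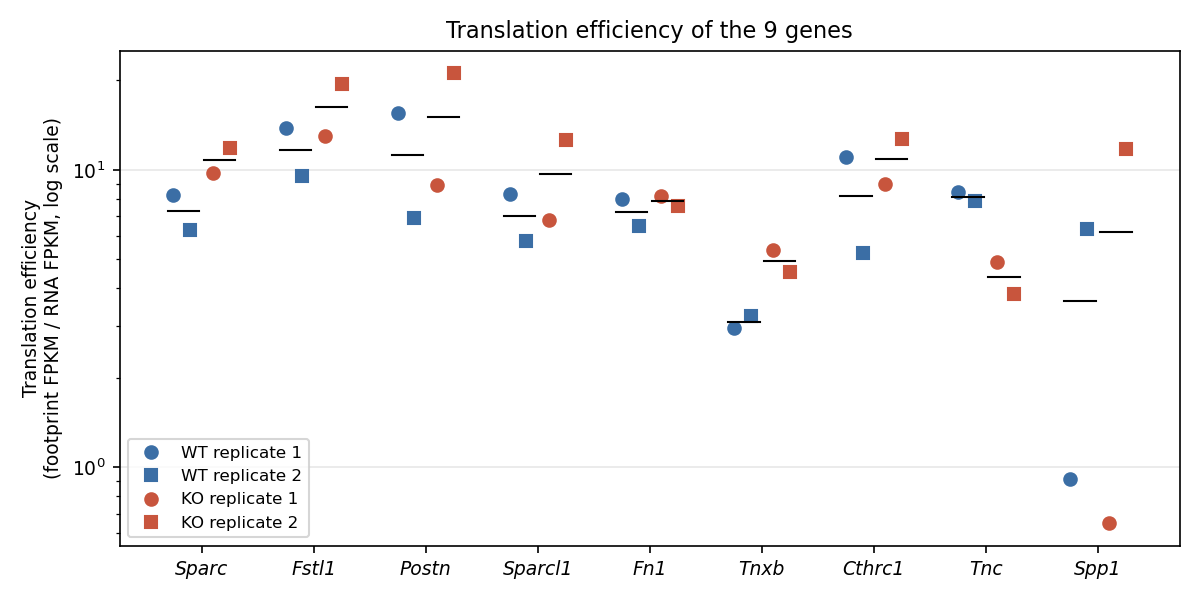
Translation efficiency of the 9 genes (footprint FPKM over implied RNA FPKM, log axis) with 1 point per library, WT in blue and KO in red, and a black line at each group's mean (n = 2). The KO points of Tnc lie below its WT points, those of Tnxb and Sparc lie above, and the others overlap.

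In WT footprints the order of levels was Sparc, then Fstl1, Postn and Sparcl1, whose ranges overlapped as neighbours, then Fn1, Tnxb, Cthrc1, Tnc and Spp1, each apart from the next. Sparc alone gave 51.1% and 54.5% of the summed footprint FPKM of the 9 genes in WT, against 46.5% and 36.6% in KO. The sum was 9024 and 7292 FPKM in WT against 21938 and 28867 in KO. Over all genes, mitochondrial tRNA genes held 56.0% and 55.3% of the summed footprint FPKM in WT against 57.0% and 48.9% in KO. The effect of this on the sums was not tested. In KO, Postn and Fstl1 overlapped in second place and Cthrc1 stood above Tnxb, while Tnxb and Tnc overlapped. Postn went from 15.3% and 11.8% of the sum in WT to 20.0% and 31.6% in KO, and Sparcl1 from 13.8% and 12.5% to 6.02% and 7.66%. In RNA the same shift was seen with closer replicates: the Postn share was 9.22% and 11.2% in WT against 21.7% and 21.8% in KO.

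**Figure D4:**
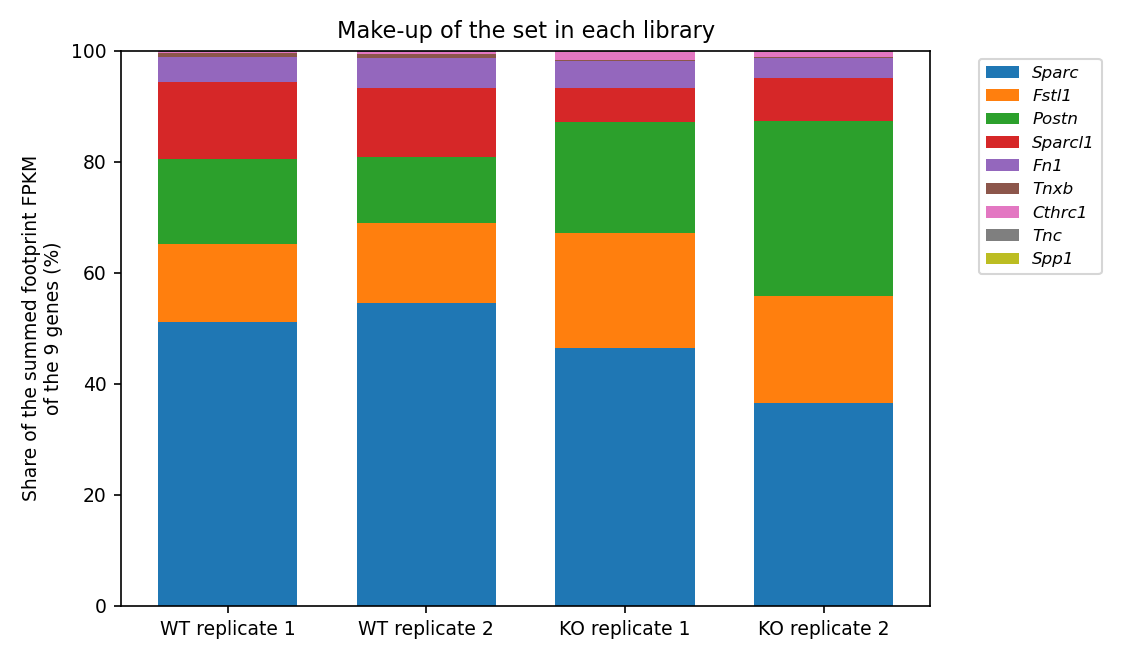
Share of the summed footprint FPKM of the 9 genes held by each gene, in percent, with 1 stacked bar per library. Sparc is the largest part of every bar, and the parts of Postn and Fstl1 are larger, and that of Sparcl1 smaller, in both KO bars than in both WT bars.

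Relatives of these proteins outside the set were taken as a further list. Of 12 family relatives, 8 were tested and 1 rose in RNA: Fstl3, a secreted inhibitor of activins, from 0.72 and 2.54 FPKM to 29.2 and 12.4 (14.03-fold, limma adjusted p = 0.033). None passed in footprints (4 at an unadjusted p under 0.05, a threshold met by 17.3% of all genes). In RNA, 4.20% of all genes were called higher. Smoc2, a SPARC-related matrix protein, read lower in RNA, at 25.8 and 25.7 FPKM in WT against 15.0 and 14.8 in KO (adjusted p = 0.066), whereas Smoc1 read 0.92 and 1.86 against 5.33 and 3.35 (adjusted p = 0.071). In footprints Smoc2 read higher, at 113 and 97.7 FPKM in WT against 139 and 138 in KO (limma adjusted p = 0.430). Smoc1 footprints were 6.34 and 3.31 FPKM in WT against 30.2 and 94.5 in KO (limma adjusted p = 0.146). Tgfbi, a fasciclin-domain protein and the closest relative of periostin, read 36.3 and 36.8 FPKM of footprints in WT against 61.4 and 104 in KO (adjusted p = 0.234). Its RNA was 5.97 and 8.13 FPKM in WT against 13.3 and 8.99 in KO (limma adjusted p = 0.201). Tnn and Spock1 were listed at 0 in all 4 libraries.

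Receptors of these proteins were tested as a list of 25 integrins, syndecans and other receptors. In footprints none passed (11 higher and none lower at an unadjusted p under 0.05), and in RNA 3 rose and none fell. Among all genes, 17.3% had an unadjusted p under 0.05 in footprints and 4.20% were called higher in RNA. Cd44, a receptor of osteopontin and hyaluronan, rose 3.14-fold in RNA (limma adjusted p = 0.025), from 6.34 and 5.88 FPKM to 21.5 and 17.2. The collagen receptor Ddr1 rose 2.698-fold (adjusted p = 0.039) and the syndecan Sdc1 3.09-fold (adjusted p = 0.046). The integrin chains of highest level did not pass in either measure. Itgb1, the common beta chain, read 1009 and 1019.5 FPKM of footprints in WT against 1064 and 1175 in KO, and Itga7, the laminin-binding chain of muscle, 822 and 645 against 395 and 656. The median log2 change of the list was 0.96 for footprints and 0.47 for RNA.

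TGF-beta is the best known inducer of periostin, tenascin C and fibronectin. Of 16 genes of TGF-beta ligands, latency proteins, receptors and SMADs, 3 rose and 1 fell in RNA and none passed in footprints (9 higher and none lower at an unadjusted p under 0.05). The shares of all genes were 4.20% called higher in RNA and 17.3% at an unadjusted p under 0.05 in footprints. Ltbp2, a latency-protein relative of the elastic fibre, rose 11.8-fold in RNA (limma adjusted p = 0.014), from 0.95 and 1.58 FPKM to 15.5 and 13.4. The ligands Tgfb2 and Tgfb3 rose 6.46-fold (adjusted p = 0.016) and 2.11-fold (adjusted p = 0.046). Ltbp1 fell, at 18.7 and 20.7 FPKM in WT against 9.73 and 10.4 in KO (log2 -0.97, adjusted p = 0.049; 1.53% of all genes were called lower in RNA). The list's median log2 change was 0.80 for footprints and 0.56 for RNA.

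Genes of matrix processing and cross-linking modify and join the fibres on which these proteins act. Of 19, 9 rose in RNA and none fell: the lysyl oxidases Lox, Loxl1, Loxl2 and Loxl4, the procollagen hydroxylases Plod2, P4ha1 and P4ha3, the procollagen C-proteinase enhancer Pcolce, and the transglutaminase Tgm2, which cross-links fibronectin. Lox rose 5.28-fold (limma adjusted p = 0.022), from 5.57 and 8.15 FPKM to 43.1 and 29.3, and Plod2 3.76-fold (adjusted p = 0.016), from 11.3 and 9.91 to 40.1 and 39.5. None passed in footprints (14 higher and none lower at an unadjusted p under 0.05). The median log2 change was 1.24 for footprints and 1.23 for RNA. Of 18 genes of focal adhesions and of YAP or SRF signalling, 1 rose in RNA, where 4.20% of all genes were called higher. It was Ankrd1, a stretch-responsive protein of cardiac muscle, at 107 and 281 FPKM in WT against 1749 and 1409 in KO (limma adjusted p = 0.026). None of the 18 passed in footprints. At an unadjusted p under 0.05, 3 were higher, while 17.3% of all genes differed in either direction. The medians were 0.57 and 0.32, against 0.36 and 0.22 for all genes.

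Median changes of cell type markers differed in direction between types. In bulk tissue, more cells of a type and more RNA per cell cannot be told apart. The 14 fibroblast markers had a median log2 change of 1.21 in footprints and 0.50 in RNA. Their summed footprint level was 22352 to 26794 FPKM in WT and 55083 to 67307 in KO. None of them passed in footprints (11 higher at an unadjusted p under 0.05, a threshold met by 17.3% of all genes). In RNA 2 rose, where 4.20% of all genes were called higher. They were Vim (2.64-fold, limma adjusted p = 0.047) and Tcf21, a fibroblast transcription factor, at 11.1 and 11.9 FPKM against 45.5 and 29.7 (3.19-fold, adjusted p = 0.029). Pdgfra, a receptor used as a defining marker of fibroblasts, read 12.4 and 14.2 FPKM of RNA in WT against 11.4 and 12.3 in KO (log2 -0.17, adjusted p = 0.640), and 149 and 128 FPKM of footprints in WT against 259 and 496 in KO. No fibroblast marker was listed at 0 in all libraries. The part of what these markers measure in the changes of the 9 genes was not tested.

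Macrophages are a known source of osteopontin. Of 15 macrophage markers, 4 rose in RNA (Lgals3, Trem2, Lyz2 and C1qa) and none passed in footprints (1 at an unadjusted p under 0.05). For all genes these shares were 4.20% called higher in RNA and 17.3% at an unadjusted p under 0.05 in footprints. Their summed RNA level was 128 to 138 FPKM in WT and 257 to 338 in KO, while their summed footprint levels overlapped (665 to 1138 against 1097 to 2193). Lgals3 rose from 1.65 and 0.63 FPKM to 25.3 and 8.08. Their part in the Spp1 values was not tested. Of 12 smooth muscle and pericyte markers, only Tagln, an actin-binding protein, rose in footprints (4.97-fold, limma adjusted p = 0.041) and RNA (4.17-fold, limma adjusted p = 0.044). Among all genes, 0.253% were called higher in footprints and 4.20% in RNA. At an unadjusted p under 0.05, 3 of the 12 were higher and 1 lower in footprints, and 4 higher and 2 lower in RNA. That threshold was met by 17.3% and 28.3% of all genes. Acta2, smooth muscle actin and a mark of myofibroblasts, read 3365 and 3959 FPKM of footprints in WT against 2721 and 1816 in KO (limma adjusted p = 0.277). The medians of these 12 were 0.46 and 0.07, the latter also below that of all genes.

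The remaining cell type lists were those of epicardium and valves, endothelium, glia and nerve, blood, and cardiomyocytes. Of 11 epicardial and valve markers, 10 were tested in footprints with none passing (6 higher at an unadjusted p under 0.05), and of 7 tested in RNA, Cilp, a cartilage matrix protein, and Krt19, a keratin, rose (adjusted p = 0.016 and 0.034). Cilp went from 2.25 and 3.77 FPKM to 21.2 and 21.02. None of 12 endothelial markers passed in either measure (4 in footprints and 2 in RNA at an unadjusted p under 0.05, medians 0.54 and 0.14, the latter below the 0.22 of all genes). That threshold was met by 17.3% of all genes in footprints and 28.3% in RNA. In RNA, 4.20% of all genes were called higher and 1.53% lower. None of the glial or blood markers passed either (1 and 0 at an unadjusted p under 0.05 in footprints, 1 and 0 in RNA; medians 1.01 and -0.28 in footprints, 0.38 and 0.52 in RNA). The 10 cardiomyocyte markers had a median of -0.59 in both measures, and 1 fell in RNA, Tcap, the titin cap protein (log2 -1.55, adjusted p = 0.044), with none passing in footprints (3 lower at an unadjusted p under 0.05). Their summed footprint level was 272519 to 317833 FPKM in WT and 183782 to 190804 in KO, and the part of this in the changes of the 9 genes was not tested.

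**Figure D5:**
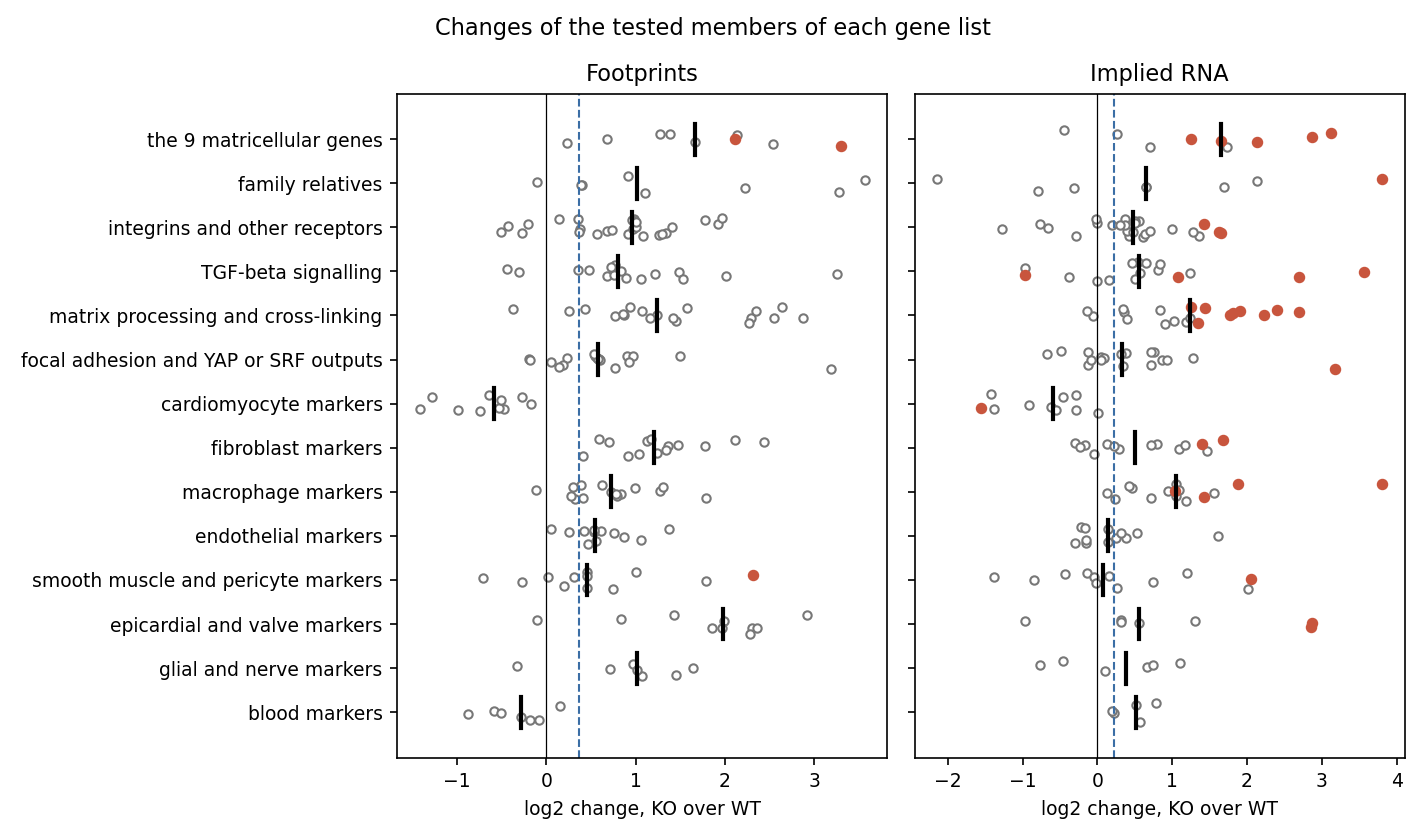
Log2 change, KO over WT, of each tested gene of the 9-gene set and of 13 other lists, for footprints (left) and implied RNA (right). Filled points passed at an adjusted p of 0.05, black bars are list medians and the dashed line is the median of all tested genes. The set's median of 1.66 in footprints lies above those of the fibroblast (1.21), macrophage (0.72) and endothelial (0.54) markers, and that of the epicardial and valve markers (1.97) lies above it.

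The genes most like the set's mean profile were sought among 9151 named genes with mean footprints of 10 FPKM or more, by the distance between their 8 log2 values (4 footprint and 4 RNA, centred on WT) and the mean of the 9 genes. The nearest were Adcy7, an adenylyl cyclase (distance 0.32), Hmox1, a heme oxygenase (0.40), Serpine2, a secreted protease inhibitor (0.42), Rps3, a ribosomal protein (0.47), and Ddah1, which degrades methylated arginines (0.47). The RNA of Adcy7 was 3.97 and 3.56 FPKM in WT against 11.2 and 10.5 in KO. Among the 9 genes themselves the distances ran from 0.68 for Fstl1 and 0.71 for Fn1 to 3.10 for Cthrc1 and 3.49 for Tnxb.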

How the data were processed

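The authors deposited 2 tables, footprint FPKM and translation efficiency, a ratio, with 1 value per Ensembl gene and library. Per the submitters' processing notes, reads were handled with the trimmer cutadapt 3.7, the aligners STAR 2.7.4a and Bowtie 1.3.1, FastQC 0.11.9, and, for levels, Cufflinks 2.2.1 and HTSeq 0.13.5, on build GRCm38 (mm10). Their settings, the part of the gene counted and the strand were not given in the sources used here. Dividing footprint FPKM by efficiency left no more than 6 significant digits in all 59296 quotients (relative tolerance 1e-10), so the quotient was taken as the RNA FPKM. An efficiency of 0 was taken as missing.

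Genes with at least 1 FPKM in at least 2 libraries were tested with limma 3.58.1 (R 4.3.3, eBayes with trend, checked on simulated data), as log2(FPKM + 1), log2(efficiency) and log2(RNA), the latter 2 where efficiency was above 0 in all 4 libraries. Footprint folds are on that scale, which understates low genes, whereas RNA and efficiency carry no pseudocount. Every member is named; from the other lists, genes that passed and up to 4 of high level, with further defining markers (Pdgfra) and Smoc1 named after their values were seen. The members and lists were chosen with earlier results of these data known. Low-value ratios between libraries shared no common step, so read depth was not recovered and what it adds to the error is unknown. Symbols, positions and start regions are from RefSeq, GRCm38.p6. Alternatives covered scaling, filters, pseudocounts, the variance model and leaving out each library.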

Additional observations from a re-analysis of the deposited data

How the results depend on the processing

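Of the 9 genes, 2 rose in footprints. With each library left out in turn the count was 0 to 0, with a filter at any value above 0 it was 0, without a variance trend 0, with a pseudocount of 0.1 it was 1 (Cthrc1), and without small RNA genes, unnamed models and pseudogenes it was 6 (Cthrc1, Fstl1, Postn, Fn1, Sparc and Tnc). The cause was not tested. For RNA, 5 rose, with 4 to 8 when 1 library was left out and 1 (Tnc) without a variance trend. Without KO replicate 2, 8 passed, 1 of them lower (Tnxb). For efficiency 0 passed in every alternative run.

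The log2 footprint change of Tnxb turned to -0.14 with median-ratio scaling and -0.13 with quantile normalisation. That of efficiency turned for Fn1 with median-ratio scaling (-0.020) and quantile normalisation (-0.059). With 1 library left out, it ran from -0.22 to 1.03 for Postn, -1.89 to 2.28 for Spp1, -0.027 to 0.87 for Sparcl1, -0.024 to 0.28 for Fn1 and -0.048 to 1.02 for Cthrc1. It was below 0 without WT replicate 2 for Postn (-0.18), Fn1 and Cthrc1, without KO replicate 2 for Postn, Spp1 and Sparcl1, and without WT replicate 1 for Spp1 (-1.20). The cause was not tested. No RNA change turned.

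Replicate numbers are shared by both groups without a stated pairing, and deviations of same-numbered libraries correlated at -0.06 for footprints and -0.22 for RNA. With the replicate block 3 genes passed in footprints, 6 in RNA and 0 in efficiency. With the numbers crossed, an alternative chosen after seeing the data, the counts were also 3, 6 and 0. Over all genes, footprint calls of 38 higher and 19 lower became 118 and 25 with the replicate block, 69 and 23 crossed, 7 and 1 with the filter at any value above 0, 23 and 13 without trend, 23 and 11 with a pseudocount of 0.1, 168 and 49 without small RNA genes, and 0 without any 1 library. Median-ratio scaling gave 40 and 30. RNA calls of 526 and 192 became 50 and 17 without trend, 1028 and 401 with the replicate block, 2412 and 829 crossed, 518 and 452 after quantile normalisation, 891 and 269 without WT replicate 2, and 2632 and 1110 without KO replicate 2. Efficiency calls, 0 and 0, became 126 and 52 with the replicate block and 23 and 10 without WT replicate 1. Read depth is unknown, so how far it limits weak genes such as Spp1 could not be given.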
